A study of Mus musculus with 12 samples.

Results

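The genes described here are those that bring glucose into the cell, break it down to pyruvate and lactate, pass pyruvate into the mitochondrion, store it as glycogen or divert it into the pentose phosphate pathway, as measured in the left ventricle of mice with a loaded or injured heart. They were chosen as a list of 36 symbols, each represented by its brightest probe set among those that the platform annotation pairs with exactly 1 symbol. Of the 36, 31 had such a probe set and all 31 were bright enough to be tested, among 11624 genes tested in all. Gpi1, Eno1, Pfkfb1, G6pdx and Mpc2 had none under their symbols and are not analysed here.

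All mice were Balb/c and 6 to 8 weeks old. Total RNA of the left ventricle (5 µg per array) was measured on 12 single-colour Affymetrix arrays, 1 per group. The aorta was narrowed between its branches to the head (transverse aortic constriction, TAC), which overloads the left ventricle with pressure, and hearts were taken at 1 day, 1 week and 1 month. In another model the left coronary artery was tied near its origin (myocardial infarction, MI), with hearts at 1 week and 1 month. In the last, the pressor peptide angiotensin II (Ang II) was given by infusion (2 mg/kg/day) for hearts taken at 1 week. Each of these 6 arrays was paired with a control of its own series and time. The controls of TAC had the operation without constriction, those of MI had the pericardium opened without a ligature, and the control of Ang II received saline from an osmotic minipump. The series text and the array labels differ on the infarction. The text describes an occlusion with reperfusion and places the 1 day harvest in that model, whereas the labels name a ligation and place the 1 day array in TAC, and the labels were followed. Whether an array holds RNA of 1 animal or of a pool, and whether the infarcted wall was part of the MI samples, is not stated. P-values therefore reflect the spread of these arrays alone, which may be technical in part. In the mean over the 6 pairs, that spread is the disagreement among pairs that differ in procedure and time. In the TAC and MI effects it is the disagreement among the times of each procedure. The pairs are therefore not replicates of 1 condition.

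Glycolysis splits glucose into pyruvate in the cytosol and yields a little ATP without oxygen. Lactate dehydrogenase interconverts pyruvate and lactate, while the pyruvate dehydrogenase complex turns pyruvate into acetyl-CoA inside mitochondria and is switched off by its kinases. The pentose phosphate pathway takes glucose 6-phosphate out of glycolysis to make NADPH and ribose. The adult heart burns mostly fatty acids and keeps isoenzymes of striated muscle for many of these steps, and a return toward glucose use is a long-described feature of hypertrophied hearts.

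Signals are in array units after scaling of each array to a common trimmed mean, by factors between 0.872 and 1.085. The 3' to 5' signal ratios of the RNA quality probes were between 1.18 and 1.33 for actin and between 0.790 and 0.854 for Gapdh. Values of the TAC 1 day array were deposited with up to 6 decimals and those of the other 11 with 1, so that array may have been exported another way. All 10 cardiomyocyte markers were bright enough to be tested, and their summed signal was between 105600 and 115800 in the controls and between 89820 and 111800 after the procedures. Of the markers of other cells, 6 of 10 for macrophages (summed signal 3535 to 6053 in the controls, 4006 to 12640 after the procedures) and 6 of 8 for fibroblasts (10740 to 14590, against 14360 to 38740) passed the test as higher. So did 3 of 5 for smooth muscle and 3 of 3 for dividing cells, against 0 of 6 for endothelium and 0 of 4 for neutrophils, while 2 cardiomyocyte markers passed as lower. The smooth muscle list was mixed: the median signal of Acta2 was 4326 in the controls and 3363 after the procedures, and that of Myh11 was 126.9 and 114.5. The 5 T and B cell markers measured and 5 of 6 of skeletal muscle lay below the limit for testing, and none of any list was at the floor of the measurement on all arrays. In bulk tissue, fewer cells of a type and less RNA per cell cannot be told apart, and the part of these shifts in the results that follow was not tested.

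The first question was whether the genes of glucose use changed in the same way in the 6 hearts under load, injury or Ang II. In the common response, the mean log2 ratio over the 6 pairs, Pfkp and Pgd rose, while Hk2, Pfkm, Eno3, Ldhb, Pdha1, Dlat, Pdk2 and Pygm fell (limma, Benjamini-Hochberg adjusted p under 0.05). The 2 that rose stand beside a background of 5.16% of all tested genes (600), and the 8 that fell beside 5.7% (662). With signals as deposited 2 members rose and 1 fell, and of 800 genes that passed 692 were higher. Of the 31 members, 23 (74.2%) had a mean change below 0 and 8 above, where 50.6% of all tested genes were below 0. An unadjusted p under 0.05 was found for 20 members (64.5%) and 29% of all genes. The median change was -0.16 for the members and -0.0038 for all tested genes. In all 6 pairs, 12 members (38.7%) were lower and 3 (9.68%) were higher, against 10.7% and 8.67% of all genes. No member had all 6 procedure arrays above all 6 controls, where 1.36% of all genes did, and 2 members (Pdha1 and Dlat) had all 6 below, where 1.37% of all genes did.

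Brightness moved with these falls. Of the 451 tested genes with a mean signal above 2000, a limit chosen after the values were seen, 31% passed as lower and the median change was -0.16. Of the 14 members above that limit, 35.7% passed as lower, with a median of -0.20. Among the 11173 dimmer genes 4.67% passed as lower, and among the 17 dimmer members 17.6% (3) did. These were Hk2 (mean signal 1999), Dlat (1989) and Pdk2 (1383), so Hk2 and Dlat lay just under the limit. The median log2 ratio of the cardiomyocyte markers was -0.024, -0.29 and -0.27 at 1 day, 1 week and 1 month of TAC, -0.22 and -0.12 at 1 week and 1 month of MI, and -0.026 after Ang II. The part of brightness and of these markers in the falls was not tested. The number of calls also depended on single pairs. Pfkp passed without any 1 of the 6 pairs, and it was the only member to pass without TAC 1 week or without TAC 1 month. Pfkp and Ldhb were the only members to pass without MI 1 week or without MI 1 month. Without TAC 1 day 11 members passed and without Ang II 13. Over all genes 267 passed without TAC 1 week, 295 without TAC 1 month, 256 without MI 1 week and 292 without MI 1 month, against 1262 with all pairs, so the loss of calls was not limited to the members. Without TAC 1 day 1255 genes passed and without Ang II 1485. Calls were also lost under other settings: Hk2, Pfkm, Eno3, Ldhb, Pdha1, Dlat and Pygm did not pass with signals as deposited, Pfkm, Eno3 and Pdha1 did not after quantile normalization, and Pfkp and Pdha1 did not with the mean of all probe sets. When the dimmest genes were tested too, 0 of the 31 and 0 genes in all passed in limma, with Pfkp at an adjusted p of 0.0589.

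**Figure D1:**
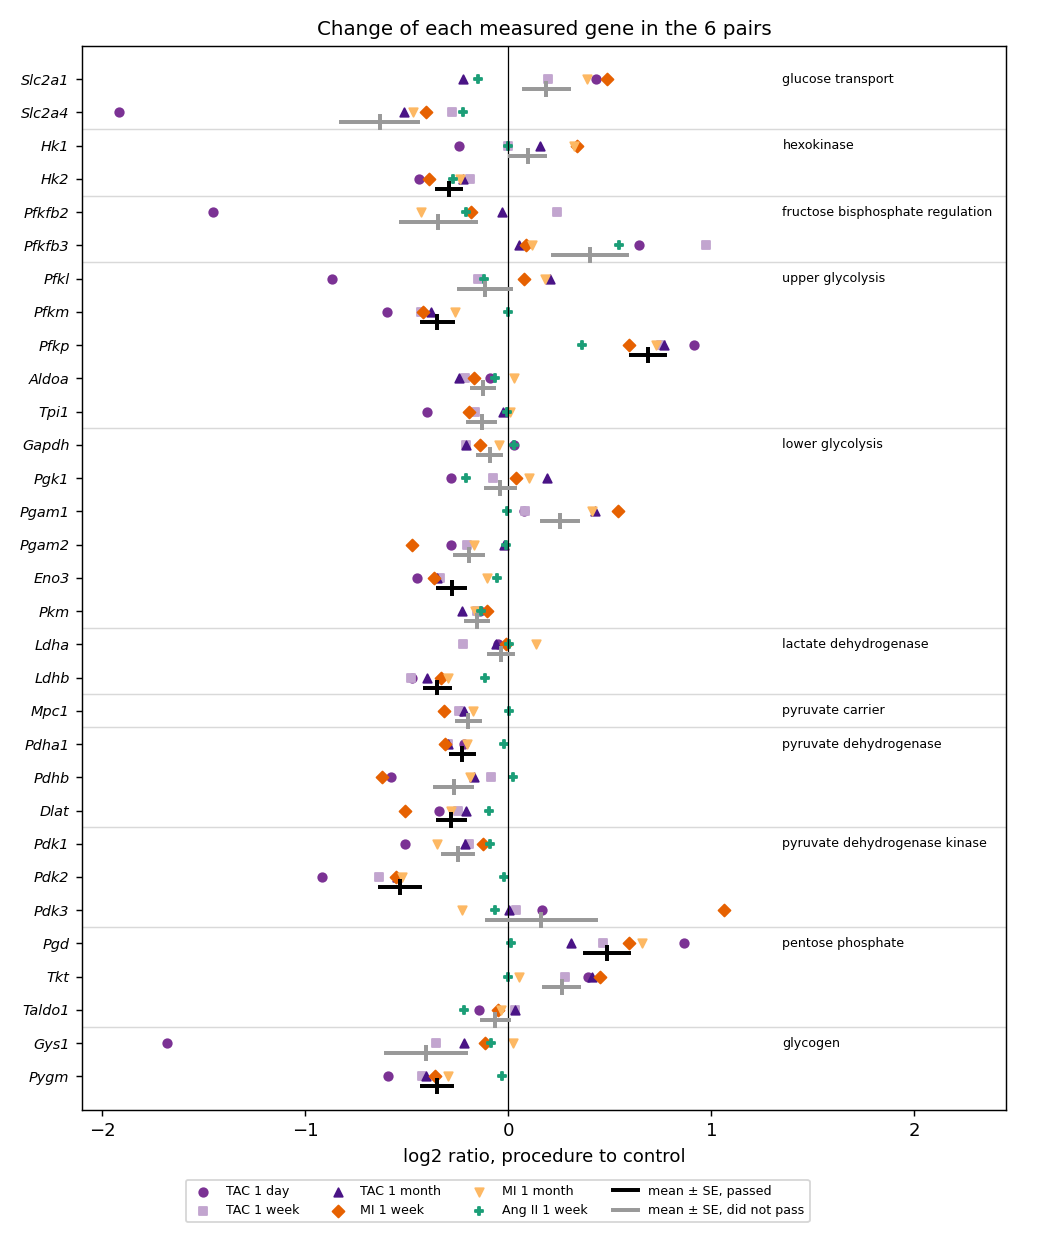
Log2 ratio of procedure to control (x axis) for each of the 31 measured genes (rows, grouped by role), with 1 symbol per pair and the mean ± SE of the limma fit below the symbols, black where the gene passed at an adjusted p of 0.05. Pfkp lies right of 0 in all 6 pairs, Pdk2 lies left of 0 in all 6, and the TAC 1 day symbols of Slc2a4, Gys1 and Pfkfb2 stand apart at -1.92, -1.68 and -1.45.

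Promoter sequences of 4 genes that passed are shown. They are the genes that rose (Pfkp and Pgd) and 2 that fell (Pygm and Ldhb). The latter had the largest falls among the members passing as lower that have 1 promoter window. Pdk2, which fell more, has 2 windows. Each is a window of 300 bases, from 250 before to 50 after the gene start, taken from RefSeq on GRCm38.p6 and written 5' to 3' on the gene's strand. Capitals mark matches to ACGTG and GCGTG on either strand, cores of sites that HIF1 and related factors are known to bind, so that a match on the other strand reads CACGT or CACGC. The windows lie at chr13:6648722-6649021 (minus strand) for Pfkp, chr4:149166656-149166955 (minus strand, the outer of 2 start sites) for Pgd, chr19:6384158-6384457 (plus strand) for Pygm and chr6:142507908-142508207 (minus strand) for Ldhb.
Pfkp: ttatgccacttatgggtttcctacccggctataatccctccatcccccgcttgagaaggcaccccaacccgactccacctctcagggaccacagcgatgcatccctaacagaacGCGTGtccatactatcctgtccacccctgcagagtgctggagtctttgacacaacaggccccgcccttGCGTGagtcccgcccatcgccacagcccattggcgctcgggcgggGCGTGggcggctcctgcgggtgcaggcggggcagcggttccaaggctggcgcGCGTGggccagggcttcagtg
Pgd: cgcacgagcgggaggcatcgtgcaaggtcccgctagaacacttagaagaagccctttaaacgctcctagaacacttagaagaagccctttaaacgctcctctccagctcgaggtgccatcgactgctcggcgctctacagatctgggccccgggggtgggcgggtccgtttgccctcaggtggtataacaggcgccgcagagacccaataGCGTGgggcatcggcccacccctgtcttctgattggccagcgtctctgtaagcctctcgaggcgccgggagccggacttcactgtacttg
Pygm: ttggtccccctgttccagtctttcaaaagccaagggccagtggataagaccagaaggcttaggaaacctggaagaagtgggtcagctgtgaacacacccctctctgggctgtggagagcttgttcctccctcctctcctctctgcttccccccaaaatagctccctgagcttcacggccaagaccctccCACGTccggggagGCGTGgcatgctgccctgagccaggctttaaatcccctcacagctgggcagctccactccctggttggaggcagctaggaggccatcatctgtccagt
Ldhb: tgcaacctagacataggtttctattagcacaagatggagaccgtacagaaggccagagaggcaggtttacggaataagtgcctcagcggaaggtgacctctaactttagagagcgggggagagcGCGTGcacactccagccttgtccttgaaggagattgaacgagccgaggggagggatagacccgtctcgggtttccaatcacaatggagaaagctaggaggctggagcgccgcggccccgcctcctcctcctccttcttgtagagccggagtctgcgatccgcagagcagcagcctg
The Pfkp window held 4 matches to GCGTG and none to ACGTG. Those of Pgd and Ldhb held 1 GCGTG each, and that of Pygm held 1 of each motif. Of 45 windows of 30 members (Slc2a4 had none in the table), 20 (44.4%) held ACGTG and 24 (53.3%) held GCGTG, against 19.6% and 32.4% of all 32851 windows. The longer motif CACGTG, which contains ACGTG, was in 5 member windows (11.1%) and 7.15% of all windows. Several members have more than 1 window, and windows of one gene can overlap. These shares describe the letters of the windows and were not set against the base composition of the promoters.

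Glucose enters the heart muscle cell through GLUT1 (Slc2a1), which is present at the surface at rest, and GLUT4 (Slc2a4), which insulin brings to the surface. The signal of Slc2a4 after TAC was 590 at 1 day, 1517 at 1 week and 1572 at 1 month, against 2231, 1837 and 2245 in the shams. After MI it was 1285 at 1 week and 1415 at 1 month, against 1704 and 1960, and after Ang II it was 1819 against 2125. Every procedure array was below its own control, the 1 day TAC array by far the most, and only the Ang II array reached into the range of the controls. The mean change of -0.64 ± 0.191 (log2, SE, n = 6 pairs) did not pass (adjusted p = 0.0598), and without the TAC 1 day pair the change was -0.38 and passed (adjusted p = 0.00898). Slc2a1 had 392, 248 and 238 after TAC against 291, 217 and 278. It had 326 and 341 after MI against 233 and 261, and 219 after Ang II against 242. It was higher in 4 of 6 pairs and its mean change of 0.19 ± 0.113 did not pass (adjusted p = 0.307). Its other probe sets above the limit had mean changes of 0.35 and 0.32 and were higher in 6 and 5 of 6 pairs. With the mean of all probe sets the change of Slc2a1 was 0.28 and did not pass either (limma, adjusted p = 0.167).

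Hexokinases trap glucose as glucose 6-phosphate. Hk2, the form that insulin-sensitive muscle uses, fell by 0.29 ± 0.061 on the log2 scale (adjusted p = 0.02, lower in 6 of 6 pairs). Its signal after TAC was 1622, 1731 and 1848, against 2200, 1973 and 2155 in the shams. The MI arrays had 1646 and 2037 against 2156 and 2405, and the Ang II array 2003 against 2417. The groups overlapped slightly, because the lowest control, at 1973, lay under the MI 1 month and Ang II arrays. Hk1, the widely expressed form, had 967, 1064 and 1225 after TAC against 1144, 1066 and 1100. It had 1115 and 1046 after MI against 883 and 837, and 907 in both Ang II arrays. Its mean change was 0.095 ± 0.086, which did not pass (adjusted p = 0.51).

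Phosphofructokinase commits sugar to glycolysis and is built from a muscle (Pfkm), a liver (Pfkl) and a platelet (Pfkp) subunit. Pfkp rose in all 6 pairs. Its signal after TAC was 1126, 705 and 730, against 598, 418 and 429 in the shams. After MI it was 633 and 593 against 419 and 358, and after Ang II 492 against 383. Only the sham of TAC at 1 day reached into the range of the procedure arrays, and the 1 day TAC array was the brightest of the 12. The mean change was 0.69 ± 0.083 (adjusted p = 0.00341), and its 3 probe sets above the limit all had a mean change above 0, between 0.36 and 0.69. The dimmest of the 3 had a log2 ratio of -1.68 after Ang II, and with the mean of all probe sets the change was 0.58 and did not pass (adjusted p = 0.0682). Pfkm moved the other way. After TAC it had 3440, 3658 and 3864, against 5207, 4933 and 5035. It had 3757 and 4171 after MI against 5028 and 5004, and 5206 after Ang II against 5219. The 5 arrays of TAC and MI were all below the lowest control, while the Ang II array sat among the controls. The mean change was a fall by 0.35 ± 0.076 (adjusted p = 0.0234). Pfkl had 530, 801 and 1053 after TAC against 967, 890 and 914. It had 917 and 890 after MI against 871 and 787, and 743 after Ang II against 807. It was higher in 3 pairs and lower in 3 (mean -0.11 ± 0.128, adjusted p = 0.602).

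The other 2 measured steps of upper glycolysis did not pass. Aldoa, the main aldolase of muscle, had a mean change of -0.13 ± 0.056 (adjusted p = 0.168) and Tpi1, triose phosphate isomerase, one of -0.13 ± 0.067 (adjusted p = 0.227), and the sign of Aldoa turned after quantile normalization. Fructose 2,6-bisphosphate, the strongest known activator of phosphofructokinase, is set by the bifunctional enzymes Pfkfb2, the heart form, and Pfkfb3, an inducible form. Pfkfb3 was higher in all 6 pairs, with signals of 26.5 to 50.7 in the controls and 38.7 to 72.2 after the procedures. Its mean change of 0.40 ± 0.181 did not pass (adjusted p = 0.172), and its other probe set above the limit had a mean change of -0.22. Pfkfb2 is described with the TAC 1 day array below.

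In lower glycolysis, where ATP is made, the clearest change was in Eno3, the enolase of striated muscle. Its signal after TAC was 5681, 5831 and 5822, against 7767, 7363 and 7417. The MI arrays had 5974 and 6937 against 7715 and 7475, and the Ang II array 7905 against 8231. The 5 arrays of TAC and MI were below every control and the Ang II array was not. Eno3 fell by 0.28 ± 0.066 (adjusted p = 0.0296), a value open to the scaling, since it did not pass with signals as deposited (-0.18) or after quantile normalization (-0.15).

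Phosphoglycerate mutase has a brain-type subunit (Pgam1), found in most tissues, and a muscle subunit (Pgam2). Pgam1 had 895, 626 and 721 after TAC against 848, 591 and 536. It had 1013 and 787 after MI against 696 and 592, and 574 after Ang II against 578. It was higher in 5 of 6 pairs, with a mean change of 0.25 ± 0.090 that did not pass (adjusted p = 0.094). Pgam2 had 4042, 3719 and 3971 after TAC against 4924, 4291 and 4027. It had 3087 and 3643 after MI against 4291 and 4092, and 4725 after Ang II against 4760. It was lower in all 6 pairs, by little at 1 month of TAC and after Ang II, and did not pass (-0.19 ± 0.071, adjusted p = 0.104). Gapdh and Pgk1, which carry out the first steps of this stretch, had mean changes of -0.091 ± 0.056 and -0.040 ± 0.072 (adjusted p = 0.315 and 0.753). The sign of both turned when signals were used as deposited or quantile normalized. Pkm, pyruvate kinase of muscle and other tissues, was lower in all 6 pairs by a small amount that did not pass (-0.16 ± 0.052, adjusted p = 0.0836).

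Lactate dehydrogenase is a tetramer of the Ldha subunit, the form of fast muscle, and the Ldhb subunit, the form of heart. Ldhb fell in every pair. Its signal after TAC was 5591, 4775 and 5196, against 7768, 6667 and 6861. After MI it was 5001 and 5324 against 6289 and 6542, and after Ang II 6848 against 7407. The TAC and MI arrays lay below all 6 controls, and the Ang II array lay among them. The mean change was a fall by 0.35 ± 0.063 (adjusted p = 0.0126). The brightest probe set of Ldhb is of a kind that can also match other transcripts, and the brightest one that is not had a mean change of -0.31 and was lower in 6 of 6 pairs. Ldha had 5425, 4497 and 4801 after TAC against 5629, 5251 and 5014. It had 5235 and 5402 after MI against 5275 and 4923, and 5332 after Ang II against 5327. The mean change of -0.036 ± 0.059 did not pass (adjusted p = 0.73), and its sign turned when signals were used as deposited or quantile normalized.

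Pyruvate crosses the inner mitochondrial membrane through a carrier made of Mpc1 and Mpc2. Mpc1 was lower in the 5 TAC and MI pairs and level after Ang II (log2 ratio 0.0017). Its mean change of -0.20 ± 0.058 did not pass (adjusted p = 0.0561). The pyruvate dehydrogenase complex then joins E1 (Pdha1 and Pdhb), E2 (Dlat) and E3 subunits. Pdha1 had 5617, 5145 and 5474 after TAC against 6548, 6333 and 6739. It had 5220 and 5852 after MI against 6490 and 6751, and 6328 after Ang II against 6431. Pdha1 was lower on all 6 procedure arrays than on any control and fell by 0.23 ± 0.058 (adjusted p = 0.0378). For Ang II the margin was very small, 6328 against a lowest control of 6333. The other probe set of Pdha1 had a mean change of -0.20 and was higher in 1 of 6 pairs, Ang II (0.12). Pdha1 did not pass after quantile normalization (-0.086, adjusted p = 0.237) or with signals as deposited (-0.13, adjusted p = 0.264). Dlat also lay below every control on all 6 procedure arrays, with 1753, 1843 and 1910 after TAC against 2219, 2193 and 2211. It had 1541 and 1808 after MI against 2195 and 2203, and 2004 after Ang II against 2144. The 6 controls of Dlat lay close together, with an SD of 0.0175 on the log2 scale, and the gene fell by 0.28 ± 0.066 (adjusted p = 0.0291). Pdhb was lower in 5 of 6 pairs (-0.27 ± 0.091) and did not pass (adjusted p = 0.0821).

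Pyruvate dehydrogenase kinases put a phosphate on E1 and so shut the complex, and Pdk2 is a widely expressed form. The signal of Pdk2 after TAC was 1012, 1022 and 1113, against 1912, 1592 and 1630 in the shams. The MI arrays had 1037 and 1115 against 1522 and 1604, and the Ang II array 1732 against 1757. The 5 TAC and MI arrays lay together and far below every control, and the Ang II array stood among the controls. Pdk2 fell by 0.53 ± 0.10 (adjusted p = 0.0145), the largest fall among the 8 members that passed as lower. Pdk1, a form that is induced in low oxygen, was lower in all 6 pairs without passing (-0.25 ± 0.073, adjusted p = 0.0573). Its other probe sets above the limit had mean changes of -0.060 and -0.063 and were higher in 3 and 2 of 6 pairs. Pdk3 was dim. It had 25.5, 27.3 and 12.8 after TAC against 22.7, 26.6 and 12.8, and 46.1 and 14.9 after MI against 22.1 and 17.4. After Ang II it had 20.2 against 21.2. The MI 1 week array was the only one to stand out, with a log2 ratio of 1.06 that exceeded 2-fold, as 6.01% of all tested genes did upward in that pair, and that was 0.88 after quantile normalization. Over the 6 pairs Pdk3 did not pass (0.16 ± 0.270, adjusted p = 0.731).

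In the pentose phosphate pathway Pgd, the dehydrogenase that makes NADPH from 6-phosphogluconate, rose. Its signal after TAC was 639, 400 and 328, against 350, 289 and 265. After MI it was 571 and 427 against 379 and 271, and after Ang II 339 against 336. It was higher in all 6 pairs, by very little after Ang II, and the control and procedure ranges overlapped. The mean change was 0.48 ± 0.108 (adjusted p = 0.0252). Its brightest probe set can also match other transcripts, and the brightest one that is not of that kind had a mean change of 0.27 and was higher in 4 of 6 pairs. Tkt, transketolase, was higher in 5 of 6 pairs (0.26 ± 0.086) and did not pass (adjusted p = 0.0756). Its brightest probe set can also match other transcripts, and the brightest one that is not of that kind had 0.15 and was higher in 3 of 6 pairs. With the mean of all probe sets the change of Tkt was 0.088 (limma, adjusted p = 0.79). Taldo1, transaldolase, had a mean change of -0.065 ± 0.066 (adjusted p = 0.559) whose sign turned with signals as deposited. The macrophage markers had median log2 ratios of 0.98, 0.20 and 0.41 at 1 day, 1 week and 1 month of TAC, 1.18 and 0.92 at 1 week and 1 month of MI, and 0.092 after Ang II. In the same order Pfkp had 0.91, 0.75, 0.77, 0.60, 0.73 and 0.36, and Pgd had 0.87, 0.47, 0.31, 0.59, 0.66 and 0.013. The fibroblast markers had medians of 0.397, 0.985, 0.888, 1.184, 1.083 and 0.558 in that order. The part of macrophages, fibroblasts or other cells in either rise was not tested.

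Glycogen is built by glycogen synthase (Gys1) and taken apart by glycogen phosphorylase, of which Pygm is the muscle form. Pygm had 2487, 2515 and 2829 after TAC against 3752, 3381 and 3746. It had 2503 and 2773 after MI against 3220 and 3414, and 3356 after Ang II against 3434. The TAC and MI arrays were all below the lowest control, and the Ang II array was not. Pygm fell by 0.35 ± 0.074 (adjusted p = 0.0205). Gys1 had a mean change of -0.41 ± 0.196 that did not pass (adjusted p = 0.199), set largely by the TAC 1 day pair, without which it was -0.15.

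**Figure D2:**
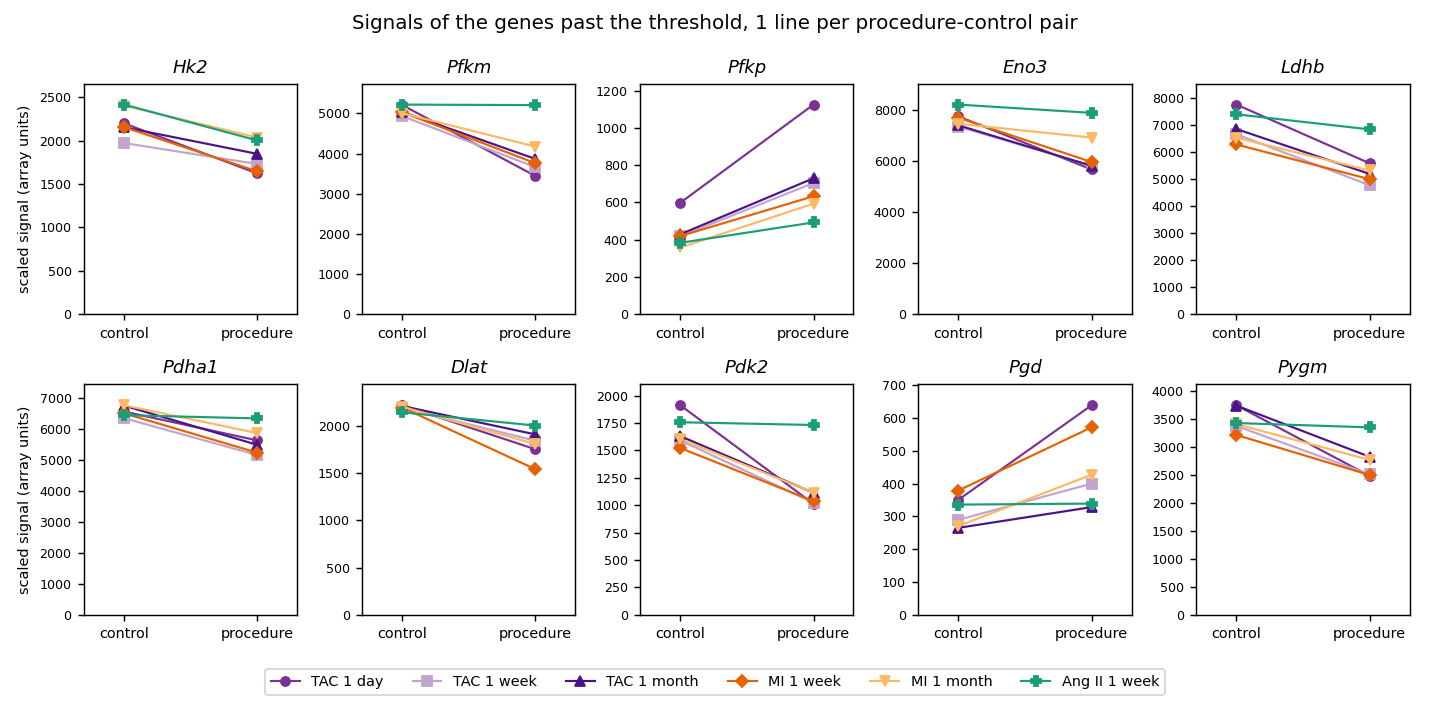
Scaled signal (y axis, from 0) of the 10 genes that passed the test in the common response, with 1 line from control to procedure for each of the 6 pairs. The lines of Pfkp and Pgd run upward, those of the other 8 run downward, and the Ang II line is close to flat for Pfkm, Pdk2, Pygm and Pgd.

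For several steps the list holds both a form typical of striated muscle and heart and another form, so their changes can be set against each other within each array, where no scaling by a constant enters. The log2 ratio of Pfkp exceeded that of Pfkm in 6 of 6 pairs, by 1.04 ± 0.154 on average (SEM, n = 6 pairs). The same held for Slc2a1 over Slc2a4 (0.82 ± 0.331), Pgam1 over Pgam2 (0.45 ± 0.138), Hk1 over Hk2 (0.39 ± 0.089) and Ldha over Ldhb (0.31 ± 0.048). Each of these 5 differences had a two-sided exact sign-flip permutation p of 0.03125, the smallest that 6 pairs can give, and 0.0375 after Benjamini-Hochberg adjustment over the 6 differences computed. The difference of Pfkl over Pfkm, 0.24 ± 0.143, was above 0 in 4 of 6 pairs and did not pass (exact permutation p = 0.15625). The Ang II pair had the smallest difference for Slc2a1 over Slc2a4 (0.076), Pfkp over Pfkm (0.37), Pgam1 over Pgam2 (0.0016) and Ldha over Ldhb (0.11). The Slc2a1 over Slc2a4 difference was 2.35 at TAC 1 day and 0.89 or less in the other 5 pairs. A ratio of this kind shows unequal change and not which of the 2 genes changed. Bright genes were lower as a group, as given above. Above the limit of 2000 lay the mean signals of Pfkm (4491), Pgam2 (4100), Ldhb (6116) and also Ldha (5167), and under it those of Slc2a4 (1610), Hk2 (1999), Slc2a1 (269), Hk1 (1015), Pfkp (543) and Pgam1 (691). The part of brightness in the differences was not tested.

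**Figure D3:**
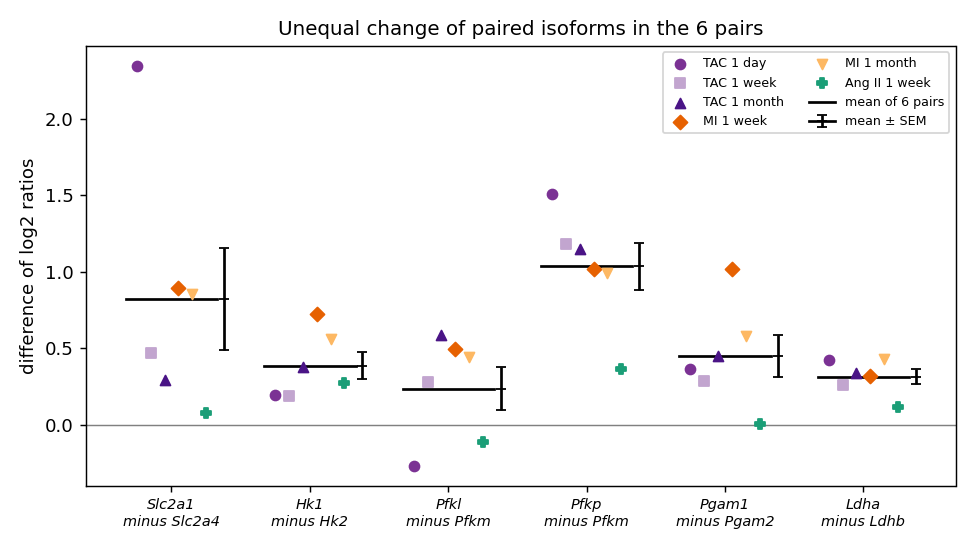
Difference between the log2 ratios of 2 forms of the same enzyme or transporter (y axis) for 6 comparisons (x axis), with 1 symbol per pair, the mean as a line and the mean ± SEM beside it. All symbols lie above 0 for 5 of the comparisons, while Pfkl minus Pfkm has 2 pairs below 0.

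The next question was whether pressure overload, infarction and Ang II differed. In the TAC effect over 3 pairs, Pfkp rose by 0.81 ± 0.103 (limma, adjusted p = 0.0148). Pdk2 fell by 0.70 ± 0.101 (adjusted p = 0.0219), Ldhb by 0.45 ± 0.071 (0.0277), Pygm by 0.48 ± 0.082 (0.0356) and Pfkm by 0.47 ± 0.082 (0.0379). That is 1 member higher and 4 lower, where 1.08% and 1.26% of all genes passed. In the MI effect over 2 pairs no member passed, where 0.826% of all genes passed as higher and 0.155% as lower. The MI change of Pfkp was 0.66 ± 0.126 (adjusted p = 0.0594), that of Pdk2 -0.54 ± 0.124 (0.0883) and that of Ldhb -0.31 ± 0.087 (0.129). Unadjusted p-values under 0.05 were found for 17 members (54.8%) after TAC and 16 (51.6%) after MI, beside 21.6% and 17.3% of all genes.

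For Ang II there was 1 pair, which the fit assumes to vary like the others, and 0 members passed in limma, as did 0 genes in all (0%), with 284 genes and 0 members at an unadjusted p under 0.05. The Ang II change was 0.36 ± 0.179 for Pfkp, -0.020 ± 0.175 for Pdk2, -0.0036 ± 0.143 for Pfkm and -0.033 ± 0.141 for Pygm. Whether Ang II differs from the other procedures was not tested. The difference of TAC from MI was tested, and 0 members and 0 genes passed in limma (0%), with 527 genes and 0 members at an unadjusted p under 0.05 and a lowest adjusted p of 0.983 among the members. The TAC minus MI difference of Pfkp was 0.15, with an unadjusted 95 percent interval of -0.23 to 0.52, and that of Pdk2 was -0.16, with an interval of -0.53 to 0.21. With 3 residual degrees of freedom such intervals leave room for differences as large as many of the changes above.

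Pair by pair, the median of the 31 members was -0.28 at TAC 1 day, -0.19 at TAC 1 week and -0.21 at TAC 1 month, beside -0.074, -0.0028 and -0.0031 for all tested genes. It was -0.14 and -0.11 at 1 week and 1 month of MI, beside 0.009 for all genes at both times, and -0.033 after Ang II, beside -0.0073. Members below 0 numbered between 18 at MI 1 month and 24 after Ang II. The direction of some of these medians depends on the scaling: with signals as deposited the medians of TAC 1 week, TAC 1 month and MI 1 week were 0.024, 0.106 and 0.015, and after quantile normalization that of TAC 1 month was 0.013.

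At 1 day after constriction, 3 of the 31 members were more than 2-fold lower than in the sham, where 6.4% of all tested genes were. No member was more than 2-fold higher, where 663 of 11624 tested genes were. Slc2a4, given above, was at 590 against 2231, a log2 ratio of -1.92. Gys1 was at 147 against 472 (-1.68), and its other probe set above the limit had -0.44. On the other arrays Gys1 had 330 against 423 and 275 against 321 at 1 week and 1 month of TAC, 249 against 270 and 264 against 260 after MI, and 292 against 310 after Ang II. The 1 day array was the lowest of the 12 for Gys1, and its sham the highest. Pfkfb2, the heart form of the enzyme that sets fructose 2,6-bisphosphate, was at 71.3 against 195 (-1.45). On the other arrays Pfkfb2 had 312 against 265 and 314 against 321 after TAC, 255 against 290 and 288 against 388 after MI, and 230 against 266 after Ang II. All 4 of its probe sets were below the sham at 1 day, from -0.12 to -1.95, and they had mean changes of both signs over the 6 pairs. These are single arrays without a test. The neutrophil markers had a median log2 ratio of 2.50 in the same pair and of 2.62 at MI 1 week, where Slc2a4, Gys1 and Pfkfb2 were at -0.41, -0.12 and -0.18. The part of infiltrating cells in the falls at 1 day was not tested.

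**Figure D4:**
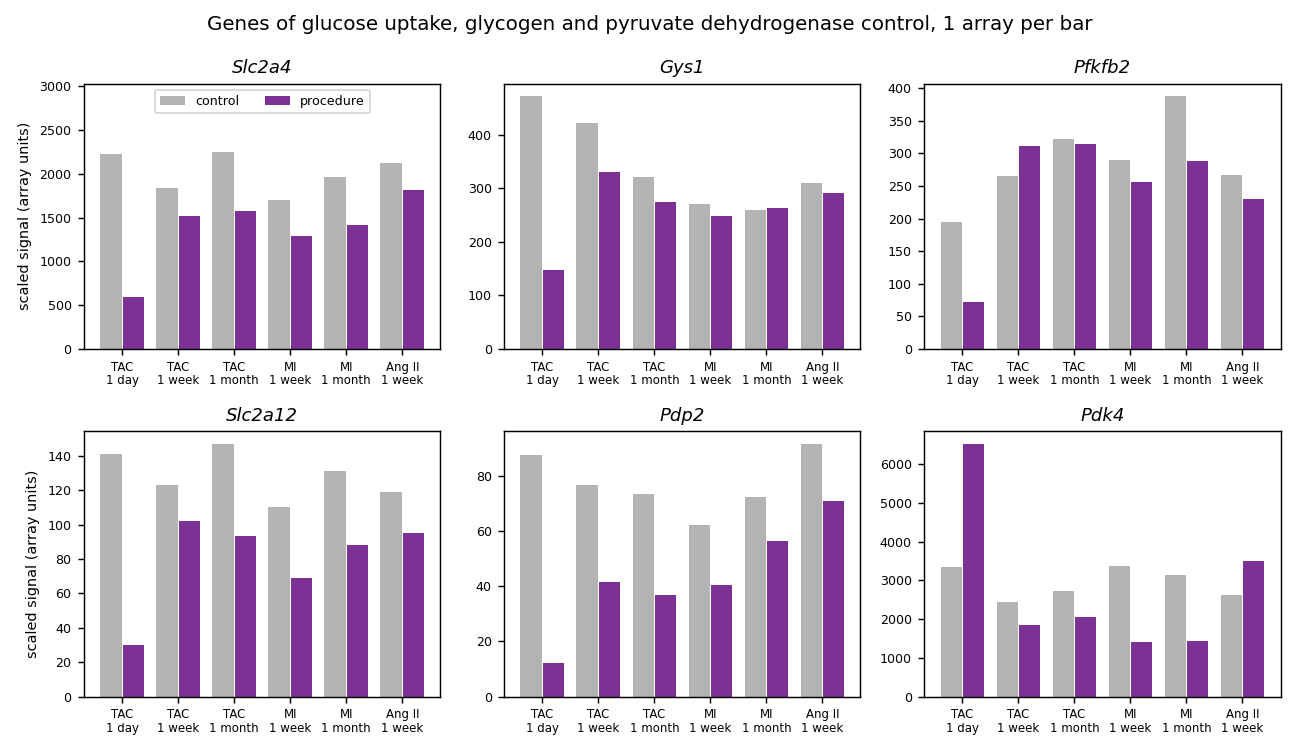
Scaled signal (y axis, from 0) of 6 genes on each of the 12 arrays, with 1 grey bar per control and 1 purple bar per procedure array for each pair on the x axis. At TAC 1 day the signals of Slc2a4, Gys1, Pfkfb2, Slc2a12 and Pdp2 are the lowest of the 12, while Pdk4 is at 6518, its highest value.

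Other genes of these pathways were taken from another list of 61 symbols, of which 57 had a probe set and 51 were tested. Of the 51, 2 (3.92%) passed as higher and 5 (9.8%) as lower in the common response, beside 5.16% and 5.7% of all genes. An unadjusted p under 0.05 was found for 19 (37.3%), beside 29% of all genes, and the median change was -0.12. Hif1a, the oxygen-regulated factor that drives many glycolytic genes, rose by 0.57 ± 0.086 (adjusted p = 0.00748), and with the mean of all its probe sets the change was 0.37 and did not pass (adjusted p = 0.0727). Its signal after TAC was 1276, 1113 and 1119 against 724, 880 and 707, after MI 1245 and 1191 against 752 and 789, and after Ang II 836 against 698. Only the Ang II array lay in the range of the controls. Pgm2, a phosphoglucomutase, rose by 0.58 ± 0.150 (adjusted p = 0.0391), with 40.9 to 64 in the controls and 58.6 to 120 after the procedures.

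Fbp2, the fructose bisphosphatase of muscle, which runs against phosphofructokinase, fell by 0.86 ± 0.192 (adjusted p = 0.0252). It had 261, 99.3 and 56.2 after TAC against 354, 208 and 184, and 124 in both MI arrays against 270 and 225. After Ang II it had 321 against 307. Fbp2 was more than 2-fold lower at 1 week and 1 month of TAC and 1 week of MI, and the Ang II pair alone went the other way. Dld, the E3 subunit of pyruvate dehydrogenase and related complexes, was lower in all 6 pairs and fell by 0.39 ± 0.077 (adjusted p = 0.0175). Pdpr, the regulatory subunit of the phosphatase that reopens the complex, fell by 0.37 ± 0.090 (adjusted p = 0.0342). With the mean of all probe sets Dld was at -0.43 (adjusted p = 0.293) and Pdpr at -0.17 (0.363), and neither passed with signals as deposited. Slc16a1, a lactate and pyruvate transporter, fell by 0.31 ± 0.084 (0.045), and Epas1, a relative of Hif1a, by 0.30 ± 0.074 (0.0316). These 2 genes fall outside the rule for named genes and are named after their values were seen. Without the TAC 1 week, MI 1 week or MI 1 month pair 1 of these 7 genes passed, and without TAC 1 month 2 did.

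Pdk4, the pyruvate dehydrogenase kinase that fasting and fatty acids induce, went in opposite directions in different pairs. Its signal was 6518 at TAC 1 day against 3338 (log2 ratio 0.97), then 1846 against 2454 and 2063 against 2735 at 1 week and 1 month. The MI arrays had 1407 against 3362 (-1.26) and 1425 against 3136 (-1.14), both more than 2-fold lower, and the Ang II array 3506 against 2634. The mean change of -0.31 ± 0.254 did not pass (adjusted p = 0.468). Pdp2, a catalytic subunit of the phosphatase that opposes these kinases, was below its control in all 6 pairs, with 12.1 against 87.6 at TAC 1 day (-2.86), and did not pass (-1.02 ± 0.297, adjusted p = 0.0548). Slc2a12, another glucose transporter of heart and muscle, lay below every control on all 6 procedure arrays, with 30.2 against 141 at TAC 1 day (-2.22), and did not pass either (-0.78 ± 0.228, adjusted p = 0.0541). Both passed after quantile normalization (limma, adjusted p = 0.0485 for Pdp2 and 0.0451 for Slc2a12) and without the TAC 1 day pair (0.0288 and 0.0221). Neither passed with signals as deposited (0.0937 and 0.119), without the intensity trend (0.108 and 0.111) or without the pair block (0.0785 and 0.0747). With the mean of all probe sets they were at 0.0699 and 0.368. Without TAC 1 week, TAC 1 month or MI 1 week neither passed.

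Eno2, the enolase of neurons and other tissues, was higher in 6 of 6 pairs and more than 2-fold so at MI 1 month (57.8 against 16.5), and did not pass (0.69 ± 0.260, adjusted p = 0.115). Slc2a3, a glucose transporter of neurons and blood cells, had 37.6 against 10.2 at TAC 1 day and 53.7 against 25.4 at MI 1 week, without passing (0.65 ± 0.299, adjusted p = 0.182). Slc16a7, a transporter of pyruvate, was more than 2-fold lower at TAC 1 month and after Ang II and did not pass (-0.56 ± 0.327, adjusted p = 0.292). Slc16a3, a lactate exporter of glycolytic cells, was too dim to be tested, at or near the floor of 4.54 in 4 of 6 controls and at 50.9 at TAC 1 day and 71.6 at MI 1 week. Pklr, pyruvate kinase of liver and red cells, was also below the limit for testing, with 3 pairs higher and 3 lower.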

How the data were processed

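The deposited values are intensity (linear probe-set signals). GCOS is named in the submitters' processing notes, with its version, algorithm and any scaling not given in the sources used here. Of 45101 probe sets, the platform annotation pairs 34958 with 1 symbol and 932 with several, and 9211 are not listed. Signals were scaled to a common 2% trimmed mean, raised to a floor at the 20th percentile (4.54) and put on the log2 scale. Each gene is its brightest probe set, and genes above the 40th percentile (18.1) were tested. limma 3.58.1 in R 4.3.3 fitted the pair as a block with an intensity trend and Benjamini-Hochberg adjustment at 0.05, with 5 residual degrees of freedom for the common response. Separate TAC, MI and Ang II effects had 3. Shams were paired through their title codes, which are built like those of the procedure arrays; no other label gives the pairing. A pair was called 2-fold at a log2 ratio of at least 1 in size, with the brighter signal above the median (25.9) and the procedure array outside the 6 controls. Alternatives changed the scaling, floor, dim limit, probe-set rule, trend or block, or left out 1 pair. The script was tested on simulated data. Arrays have no depth, and their number limits the precision. The members, lists and tests were chosen with earlier results of these data known. Members named in full are those past a threshold, past 2-fold or in an isoform difference. Of the other genes, the 12 with the largest mean change among those past a threshold or 2-fold, and Pdk4, are named. Sequences are from RefSeq (GRCm38.p6).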

Additional observations from a re-analysis of the deposited data

How the results depend on the processing

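The members' calls depended on the processing more than their directions did. For the 31 members over the settings, 204 of 248 comparisons kept direction and side of the threshold, 35 lost the call, 0 gained one and 9 changed sign; leaving out 1 pair gave 144, 34, 4 and 4 of 186. For the named other pathway genes these were 67, 17, 3 and 0 of 87, and 46, 18, 2 and 0 of 66. The 10 members that passed kept their sign throughout. The cause of the changes was not tested unless stated.

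With signals as deposited 3 members passed (2 higher, 1 lower), their median was -0.059 while that of all genes was 0.093, 800 genes passed (692 higher), 3 other pathway genes and 1 member in TAC passed, and 8 member ratios exceeded 2-fold. Quantile normalization gave 7 members (2 higher, 5 lower), 1136 genes in all (530 higher) and 3 members in TAC. Without the limit on dim genes 0 members (0 higher, 0 lower), 0 other pathway genes, 0 members in TAC and 0 genes in all passed. The mean of all probe sets gave 8 members (1 higher, 7 lower), 4 other pathway genes, 2 members in TAC, 694 genes in all, and a Pfkp minus Pfkm difference of 0.93 (adjusted exact permutation p = 0.075). Without the intensity trend 1 member (1 higher, 0 lower), 1 other pathway gene, 0 members in TAC and 241 genes passed. Without the pair block, 6 members (1 higher, 5 lower), 2 other pathway genes and 473 genes passed; the pairing rests on the sham title codes.

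Leaving out 1 pair in turn gave 1 to 13 members (1 to 3 higher, 0 to 10 lower), 1 to 7 other pathway genes and 256 to 1485 genes. Isoform differences ranged from 0.52 to 0.97 (Slc2a1 minus Slc2a4), 0.32 to 0.43 (Hk1 minus Hk2), 0.94 to 1.17 (Pfkp minus Pfkm), 0.34 to 0.54 (Pgam1 minus Pgam2) and 0.29 to 0.35 (Ldha minus Ldhb), each with an adjusted exact permutation p of 0.075, since 5 pairs cannot pass.

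Changes of sign were in genes that did not pass: with signals as deposited Gapdh 0.0052, Pgk1 0.056, Ldha 0.061 and Taldo1 0.031; after quantile normalization Aldoa 0.012, Gapdh 0.017, Pgk1 0.045 and Ldha 0.082; with the mean of probe sets Pgk1 0.0050. Leaving out 1 pair, Pfkl ranged from -0.18 to 0.037, Pgk1 from -0.086 to 0.0078, Ldha from -0.070 to 0.0017 and Pdk3 from -0.018 to 0.24. Signals near the floor limit Pdk3, Pfkfb3, Slc16a3 and Pklr.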
